A study of Mus musculus with 2 samples.

Results

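Interferon-responsive microglia are brain macrophages that hold transcripts of antiviral genes. They were gated here as microglial barcodes with at least 3 unique molecular identifiers (UMIs, 1 per captured transcript) summed over 6 genes, Ifit2, Ifit3, Irf7, Isg15, Cxcl10 and Rsad2. Barcodes entered if they held 1500 to 50000 UMIs, of which mitochondrial genes made up no more than 30%. A barcode was called microglial with at least 5 UMIs of C1qa, C1qb and C1qc, at least 2 of P2ry12, Tmem119, Siglech and Cx3cr1, fewer than 2 of the macrophage genes Mrc1, Pf4 and F13a1, and fewer than 6 of the astrocyte genes Aldoc and Gja1. This gave 102 barcodes of 7032 microglia and of 25287 barcodes in all. Of them 72 were among 3910 microglia in E4 and 30 among 3122 in E3. The members were chosen on the measured values, so every ratio of members to other microglia below is a description without a test.

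The E4 and E3 mice were homozygous knock-in animals in which human APOE4 or APOE3 replaces mouse Apoe under the endogenous promoter, and all were female and 11 to 12 months old. Right hemispheres without brainstem and cerebellum from 3 perfused mice per genotype were pooled, dissociated with warmed enzymes and run as 1 droplet library per genotype, so that mice cannot be told apart and genotype cannot be told apart from library. The E4 library held 71625170 UMIs in 13802 barcodes and the E3 library 56415229 UMIs in 11485 barcodes. The libraries shared 46 barcode sequences, and 0 of these were members.

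Type I interferons are released when cells sense foreign or misplaced nucleic acid. They bind the receptor pair Ifnar1 and Ifnar2, and the kinases Jak1 and Tyk2 then activate a complex that holds Stat2 and Irf9 and binds the interferon-stimulated response element (ISRE) in front of antiviral genes. In the brain, microglia with such a programme are known from ageing, infection and amyloid models, and Cxcl10, a chemokine for T cells, is in addition a target of NF-kappaB.

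The starts of 4 gate genes are printed to show what the ISRE and the NF-kappaB element look like in front of genes that chose the members. Windows of 300 bases, from 250 bases before to 50 after the start, were taken from RefSeq on GRCm38.p6 (mm10) and searched on both strands for the ISRE-like pattern GAAANNGAAA, which reads TTTCNNTTTC on the other strand, and for the NF-kappaB consensus in the form of 3 G, a purine, any base, 3 pyrimidines and 2 C. Wider forms were not searched. Capitals mark matches, and each window reads 5′ to 3′ along its gene. Isg15 (chr4:156200769-156201068, minus strand) had 3 overlapping ISRE-like matches, Ifit3 (chr19:34583279-34583578, plus strand) had 2, and Rsad2 (chr12:26456403-26456702, minus strand) had 1. Cxcl10 (chr5:92348840-92349139, minus strand) had 1 ISRE-like match, the first run of capitals, and 2 overlapping matches to the NF-kappaB consensus, the second run.
Isg15: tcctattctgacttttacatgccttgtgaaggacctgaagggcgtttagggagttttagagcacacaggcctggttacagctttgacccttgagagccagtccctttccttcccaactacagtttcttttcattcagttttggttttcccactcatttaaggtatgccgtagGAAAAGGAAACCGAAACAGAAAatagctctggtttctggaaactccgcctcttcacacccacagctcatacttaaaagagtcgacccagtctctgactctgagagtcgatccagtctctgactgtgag
Ifit3: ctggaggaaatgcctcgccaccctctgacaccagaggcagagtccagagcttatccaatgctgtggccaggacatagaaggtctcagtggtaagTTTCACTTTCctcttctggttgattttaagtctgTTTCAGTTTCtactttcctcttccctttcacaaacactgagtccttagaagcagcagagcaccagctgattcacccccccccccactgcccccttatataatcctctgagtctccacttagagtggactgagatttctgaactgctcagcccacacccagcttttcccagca
Rsad2: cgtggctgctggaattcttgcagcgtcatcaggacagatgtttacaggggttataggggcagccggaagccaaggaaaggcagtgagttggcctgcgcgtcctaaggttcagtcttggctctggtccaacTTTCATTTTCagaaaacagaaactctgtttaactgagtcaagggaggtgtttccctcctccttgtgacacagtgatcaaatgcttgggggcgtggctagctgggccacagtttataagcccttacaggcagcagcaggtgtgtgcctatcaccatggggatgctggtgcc
Cxcl10: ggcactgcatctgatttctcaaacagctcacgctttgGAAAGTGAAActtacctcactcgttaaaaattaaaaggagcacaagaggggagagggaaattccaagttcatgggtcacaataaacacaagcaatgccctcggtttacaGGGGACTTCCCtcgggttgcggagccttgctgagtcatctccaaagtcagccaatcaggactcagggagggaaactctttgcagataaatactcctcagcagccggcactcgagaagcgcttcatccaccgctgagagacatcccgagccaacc

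Of the 6 gate genes, these 4 had an ISRE-like match. Irf7 had neither kind of match, and Ifit2 had 0 ISRE-like matches and 1 to the NF-kappaB consensus in its 2 windows. Among 155 further interferon-response genes listed by role, 121 had a window and 48 of these (39.7%) had a match. The share was 3.99% of 27025 genes, or 3.44% of all 32851 windows. None of the 14 genes with a window in a list of 18 inflammatory genes had an ISRE-like match, whereas 6 of them (42.9%) matched the NF-kappaB consensus, against 6.55% of all genes and 5.81% of all windows. A match is a run of letters and says nothing of binding in these cells.

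The gated share of microglia was 1.84% in E4 (exact binomial 95% interval 1.44 to 2.31) and 0.961% in E3 (0.649 to 1.37), a ratio of 1.92 (1.24 to 3.04). All intervals given here and later reflect counting error alone, and a genotype with a single library allows no test. The share was higher in E4 under each of 11 settings of the gate and the cell filters, with ratios of 1.89 to 2.55. Members were deeper than other microglia, with a median of 8704 UMIs in E4 members against 4348 in other E4 microglia, and of 6435.5 in E3 members against 3803 in other E3 microglia. With every cell thinned to 1500 UMIs the expected share was 0.576% in E4 and 0.271% in E3, and 0 microglia were shallower than that.

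A gate sum of exactly 3, just inside the threshold, was held by 15 E4 and 11 E3 members, or 0.384% and 0.352% of microglia, with median depths of 8385 and 7439 UMIs. A sum of exactly 2, just outside, was held by 49 E4 and 21 E3 barcodes, or 1.25% and 0.673%, with median depths of 5906 and 6001 UMIs. At the upper end, 13 E4 members and 0 of 3122 E3 microglia reached 20 gate UMIs, and the count of 0 allows a share of up to 0.118% (exact binomial).

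Among members, the gate genes did not go together evenly. The gate sums these same genes, so a barcode rich in a single gene enters without the others. Low overlap among members is therefore set in part by the selection. The counts below describe what the members hold, and cannot show how the genes go together in microglia at large. Ifit3, which supports the Ifit antiviral complex, was detected in 55 of the 102 members, Irf7, the factor that amplifies interferon transcription, in 49, and Rsad2, the antiviral enzyme viperin, in 48. Ifit2 was found in 40 members, 35 of which also held Ifit3. Cxcl10 was found in 30 members, and only 6 of these held Ifit3 and 3 held Rsad2. Isg15, a ubiquitin-like protein that is attached to other proteins, was the gate gene with the lowest detection, in 27 members. In E4 24 of 72 members and in E3 11 of 30 were gated on a single gene.

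The label was borne out for only some of the barcodes. Over 5 endothelial markers (Cldn5, Flt1, Ly6c1, Pecam1 and Itm2a), 30 of 72 E4 members and 13 of 30 E3 members held 51 to 626 UMIs, while every other member held at most 2. Among other microglia, 1.54% in E4 and 1.52% in E3 held 10 or more. The members were therefore described in 3 subsets, which were drawn after the values had been seen. The endothelial subset has 43 barcodes (30 E4, 13 E3) with at least 10 endothelial UMIs. The interferon subset has 35 (26 E4, 9 E3) that reach 3 gate UMIs without Cxcl10, and the Cxcl10 subset has the other 24 (16 E4, 8 E3). Unless stated, ratios for the interferon and Cxcl10 subsets are to other microglia of the same library without endothelial transcripts (3779 in E4, 3045 in E3).

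**Figure D1:**
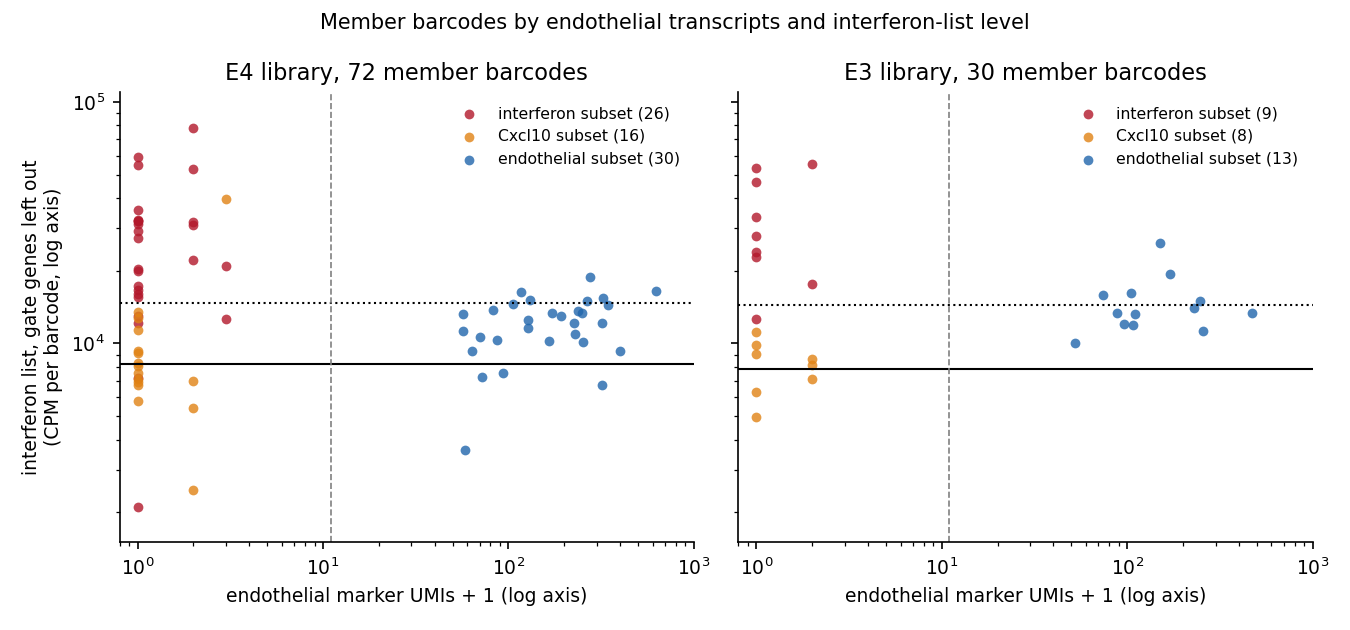
Each point is a member barcode, 72 in E4 on the left and 30 in E3 on the right, placed by its endothelial marker UMIs plus 1 on the horizontal log axis and by the interferon list without the gate genes in CPM on the vertical log axis. Solid and dotted lines are the median and the 99th percentile of other microglia (8235 and 14700 CPM in E4, 7836 and 14405 in E3), the dashed line marks 10 endothelial UMIs, and most of the interferon subset lies above the dotted line at 2 endothelial UMIs or fewer.

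The interferon subset was the only one in which the interferon list beyond the gate was high in nearly every barcode. The summed level of the list was a median of 24694 CPM (UMIs per 1000000 UMIs) per barcode in E4 (lowest 2100, highest 78331) and 27959 in E3 (lowest 12608, highest 55390). Other microglia had medians of 8235 in E4 and 7836 in E3, so the subset was 3.00-fold and 3.57-fold higher. The 99th percentile of other microglia, 14700 CPM in E4 and 14405 in E3, was passed by 21 of 26 E4 and 8 of 9 E3 barcodes of the subset. It was passed by 1 of 16 E4 and 0 of 8 E3 barcodes of the Cxcl10 subset, and by 6 of 30 E4 and 5 of 13 E3 barcodes of the endothelial subset. The depth of the subset was near that of other microglia, with medians of 4577 against 4332 UMIs in E4 and 3459 against 3776 in E3.

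The level of the list followed the gate sum in E4. With Cxcl10 left out of the sum, the median of the list in endothelial-free E4 microglia was 8189 CPM at a sum of 0, 9018 at 1, 9707 at 2, 12805 at 3, 18322 at 4 to 9 and 32343 at 10 or more. In E3 the same steps gave 7836, 7741, 15322, 23950, 46768 and 27959 CPM, and the last 3 steps held 3 barcodes each. A cutoff of 20000 CPM of the list, set after the values were seen and not using the gate, was reached by 26 of 3821 endothelial-free E4 microglia (0.680%, 0.445 to 0.995) and 14 of 3062 E3 microglia (0.457%, 0.250 to 0.766). Of these, 8 in E4 and 7 in E3 were not members, and 2 and 4 of them had no gate UMI at all. The gate thus missed some barcodes with a high list level.

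Of the list, 73 genes passed a level rule of 20 UMIs in at least 8 barcodes of the subset, or as many expected from other microglia. A gene could pass by being high in the subset, and only 24 list genes passed the same rule in the Cxcl10 subset, so the counts and medians of the genes at level, here and by role below, are set in part by the rule. Of these 73, 48 were at least 2-fold higher in the subset than in other microglia in both libraries and 0 were 2-fold lower, and the median log2 ratio was 2.31 in E4 and 1.88 in E3. Over all 1715 genes by the same rule, 58 (3.38%) were at least 2-fold higher and 16 lower, with medians of −0.10 and −0.16.

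**Figure D2:**
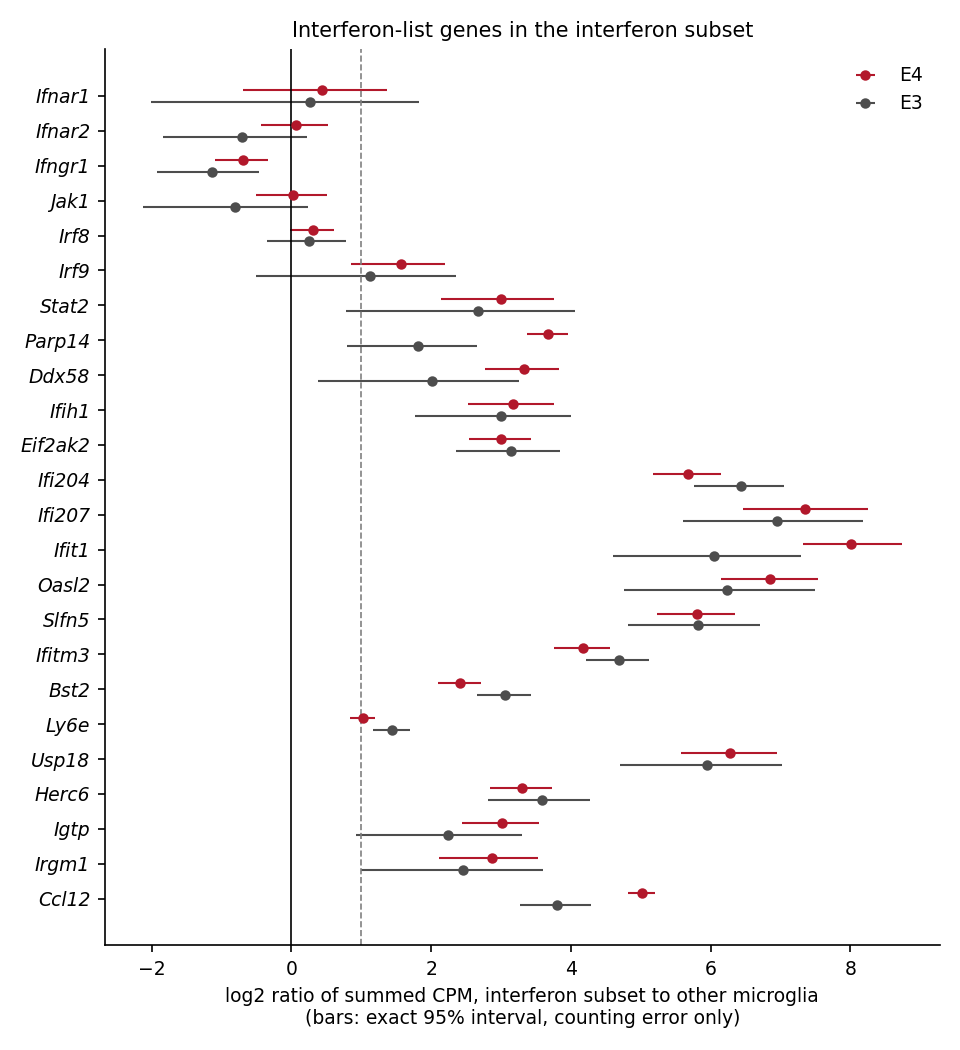
Points give the log2 ratio of summed CPM in the interferon subset to other microglia for 24 genes of the interferon list, E4 above E3, with exact 95% intervals for counting error, and the dashed line marks a 2-fold ratio. Ifit1 (8.01 in E4, 6.06 in E3) and Usp18 (6.27 and 5.95) lie far to the right, and the receptors Ifnar1, Ifnar2 and Ifngr1 lie left of the dashed line.

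Among transcription factors and signalling genes, 7 of 11 were at least 2-fold higher in both libraries. Parp14, a mono-ADP-ribosyltransferase, had 787 CPM in the E4 subset against 61.6 in other E4 microglia, and 216 against 61.7 CPM in E3 (log2 ratios 3.67 and 1.81). Its UMIs came from 21 of 26 E4 and 6 of 9 E3 barcodes. Stat2, the transactivating part of the complex, had log2 ratios of 3.00 in E4 and 2.67 in E3, and Irf9, its DNA-binding part, of 1.57 and 1.13. The kinase Jak1 was near the level of other microglia, with log2 ratios of 0.02 in E4 and −0.81 in E3, as was Irf8 (0.31 and 0.25), a factor that microglia need for their development.

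Of the sensors of nucleic acid, 7 of 11 were 2-fold higher in both. Ifi204, of the AIM2-like DNA sensor family, had 51 UMIs in 15 of 26 E4 barcodes and 29 UMIs in 9 of 9 E3 barcodes. Its level was 375 CPM in E4 against 7.32 in other microglia and 569 against 6.60 in E3 (log2 ratios 5.68 and 6.43). Its relative Ifi207 had log2 ratios of 7.35 and 6.95. The RNA sensors Ifih1 (MDA5) and Ddx58 (RIG-I) had 3.17 and 3.32 in E4 and 3.00 and 2.02 in E3, and Eif2ak2, the kinase PKR that halts translation, had 3.00 and 3.14 in E4 and E3. Tmem173, which encodes the adaptor STING, did not stand apart, with 0.06 and −0.12.

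Of the antiviral effectors, 37 were at level, against 11 in the Cxcl10 subset, and 27 of the 37 were 2-fold higher in both. Ifit1, which binds foreign RNA caps, had 390 CPM in the E4 subset against 1.51 in other microglia (log2 ratio 8.01, 7.32 to 8.74), and 137 against 2.07 CPM in E3 (6.06, 4.61 to 7.30). It was found in 14 of 26 E4 and 4 of 9 E3 barcodes. Oasl2, an oligoadenylate synthetase-like protein, had ratios of 6.85 and 6.23, Slfn5 of 5.81 and 5.82 and Rtp4 of 4.54 and 3.84. Ifitm3, which blocks entry of viruses at endosomes, had 441 CPM in the E4 subset against 24.4, and 903 against 35.1 in E3. Bst2, or tetherin, which holds budding virions at the membrane, had 684 against 128 CPM in E4 and 1139 against 137 in E3, and was found in 22 of 26 and 8 of 9 barcodes. Trim30a had log2 ratios of 2.62 and 2.67 and Xaf1 of 3.47 and 3.37. Ly6e, an abundant surface protein, was found in every barcode of the subset and stood only 1.02 and 1.44 higher.

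In the ISG15 conjugation system, Usp18, which removes Isg15 and also dampens the receptor, had log2 ratios of 6.27 in E4 and 5.95 in E3. The ligase Herc6 had 3.30 and 3.59. All 4 interferon-induced GTPases at level were 2-fold higher in both, among them Igtp (3.02 and 2.24), Irgm1 (2.87 and 2.46) and Gbp7 (1.42 and 1.66), which act on membranes around intracellular pathogens. Ccl12, a chemokine for monocytes, held 286 UMIs in 16 of 26 E4 barcodes and 36 UMIs in 6 of 9 E3 barcodes. Its level was 2103 CPM in the E4 subset against 65.1 in other microglia, and 707 against 50.7 CPM in E3 (log2 ratios 5.01 and 3.80).

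The receptors that would receive the signal were not part of this pattern. None of 4 receptor genes was 2-fold higher in both libraries. Ifnar2 had log2 ratios of 0.06 in E4 and −0.70 in E3, and Ifngr1, of the type II receptor, −0.70 and −1.14. Of 2 feedback inhibitors at level, Socs3 had 1.05 in E4 and −2.13 in E3, and Ptpn6 had 0.12 and 0.42. Of 12 class I antigen presentation genes at level, 11 were higher in both libraries and 2 were 2-fold higher in both. Of all 1715 genes at level, 320 were higher in both. H2-K1 had log2 ratios of 1.14 in E4 and 2.39 in E3, H2-D1 of 1.07 and 2.14 and B2m of 0.44 and 1.41. A single barcode held 313 of the 591 class I UMIs of the E3 subset. Without the 4 barcodes rich in other transcripts that are described below, H2-K1 had 1.29 and 2.09, H2-D1 1.11 and 1.54 and B2m 0.57 and 1.22.

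Outside the lists, the genes furthest above other microglia in both libraries included Trim30c (4.54 and 2.77), Rnf213 (3.87 and 2.95), a large ubiquitin ligase, Clec2d (2.75 and 3.47), a ligand of natural killer cell receptors, and Trafd1 (1.61 and 1.58). Among the genes furthest below was Mal, of oligodendrocytes (−3.51 and −3.12), which other microglia held at 168 CPM in E4. Reads of the near-identical Ifit3 and Ifit3b, Trim30 and Trim12 genes, class I genes and alpha globins can be split or lost between copies, so their levels are uncertain.

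The identity genes of microglia were present in the interferon subset. Over 10 microglial markers the summed level was 20182 CPM in the E4 subset against 21595 in other microglia, and 11822 against 21565 CPM in E3. Of the 10, 7 were lower than in other microglia in both libraries and 0 were 2-fold lower in both, with median log2 ratios of −0.11 in E4 and −0.96 in E3. Of all 1715 genes at level, 627 were lower in both. Without the 4 barcodes described next, the summed level was 21657 CPM in E4 and 18926 in E3. Markers of some other cells were at or near 0, and those of others were not. T and NK cell markers had 0 UMIs in both libraries, 5 of 5 at 0, neutrophil markers had 0 in E4 and 1 in E3, and dendritic cell markers had 0 in E4 and 1 in E3. Endothelial markers had 9 UMIs in E4 and 2 in E3, or 66.2 and 39.3 CPM, near the 75.9 and 65.6 CPM of other microglia. B cell markers had 41 UMIs in E4 and 9 in E3, or 301 and 177 CPM, against 234 and 205 CPM in other microglia, and 7 of 26 E4 and 2 of 9 E3 barcodes held 3 or more. Haemoglobin markers had 9287 UMIs in E4, 9280 of them in 1 barcode, and 8 in E3. Choroid plexus markers had 70 in E4 and 2343 in E3, 2326 of the E3 UMIs in 1 barcode. Macrophage markers had 14 in E4 and 26 in E3, in 1 barcode of each library.

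A few barcodes carried much of certain genes. An E3 barcode with 13132 UMIs held 910 UMIs of 4 MHC class II genes and 26 of Ms4a7, a macrophage marker, and gave 96.4% of the Lyz2 UMIs of the E3 subset and all Cxcl9 and Ccl8 UMIs. Another E3 barcode held 2326 UMIs of choroid plexus genes. In E4, a barcode held 310 UMIs of class II genes and 14 macrophage marker UMIs, and another held 9280 haemoglobin UMIs and had the lowest list level, 2100 CPM. Without these 4 barcodes, 49 of 73 list genes were at least 2-fold higher in both libraries, with medians of 2.45 in E4 and 2.56 in E3 over 24 and 7 barcodes, an order of the libraries opposite to that of 2.31 and 1.88 with them. Lyz2 then had log2 ratios of 0.82 in E4 and −0.30 in E3, against 0.94 and 4.33 with them, and Ccl12 had 5.22 and 4.25. Whether such barcodes held transcripts of more than 1 cell was not tested.

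The Cxcl10 subset is, by its definition, short of the other gate genes, so their levels are no finding. All 16 E4 and 8 E3 barcodes held Cxcl10, with 289 and 67 UMIs, and 106 of the E4 UMIs lay in a single barcode. Of the 5 other gate genes, Ifit3 and Isg15 had 1 UMI each in E4, and in E3 all 5 were at 0. The interferon list had a median of 7802 CPM per barcode in E4 and 8385 in E3, near the 8235 and 7836 of other microglia. The subset was deeper, with medians of 7832 UMIs in E4 and 5372 in E3.

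Inflammatory genes were higher in this subset. Of 18 such genes 11 were at level (20 UMIs in at least 8 barcodes, or as many expected), and 10 of these were at least 2-fold higher in both libraries, with median log2 ratios of 2.02 in E4 and 2.94 in E3. A gene could pass by being high in the subset, and only 6 inflammatory genes passed the same rule in the interferon subset. The counts and medians for the Cxcl10 subset, here and below, are therefore set in part by the rule. Over all 1618 genes by the same rule, 42 (2.60%) were at least 2-fold higher and 38 lower. Tnf, the cytokine, had 396 CPM in the E4 subset against 19.1 in other microglia and 119 against 9.38 in E3, from 7 of 16 and 3 of 8 barcodes. The chemokine Ccl4 had 2401 against 363 CPM in E4 and 8005 against 340 in E3, and Ccl3 had 1035 against 219 and 1358 against 177. These chemokines recruit leukocytes and were present in only some of the barcodes, Ccl3 in 7 of 16 and 3 of 8. By contrast, Nfkbia, the inhibitor that NF-kappaB induces against itself, was found in all 16 and all 8 barcodes, with log2 ratios of 2.20 and 3.30. Its relative Nfkbiz had 2.65 and 3.64, Cd83 had 2.02 and 2.82, Cd14, the lipopolysaccharide co-receptor, 1.66 and 1.92, and the stress factor Atf3 1.36 and 2.92. In the interferon subset, the 6 inflammatory genes at level had median log2 ratios of 0.71 in E4 and −1.47 in E3, and 0 were higher in both libraries. Without its 4 barcodes rich in other transcripts, Ccl4 had 1806 CPM in E4 (log2 ratio 2.31) and Ccl3 had 585 (1.42). Both then had 0 UMIs in E3. A single E4 barcode of the interferon subset held 197 inflammatory UMIs.

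**Figure D3:**
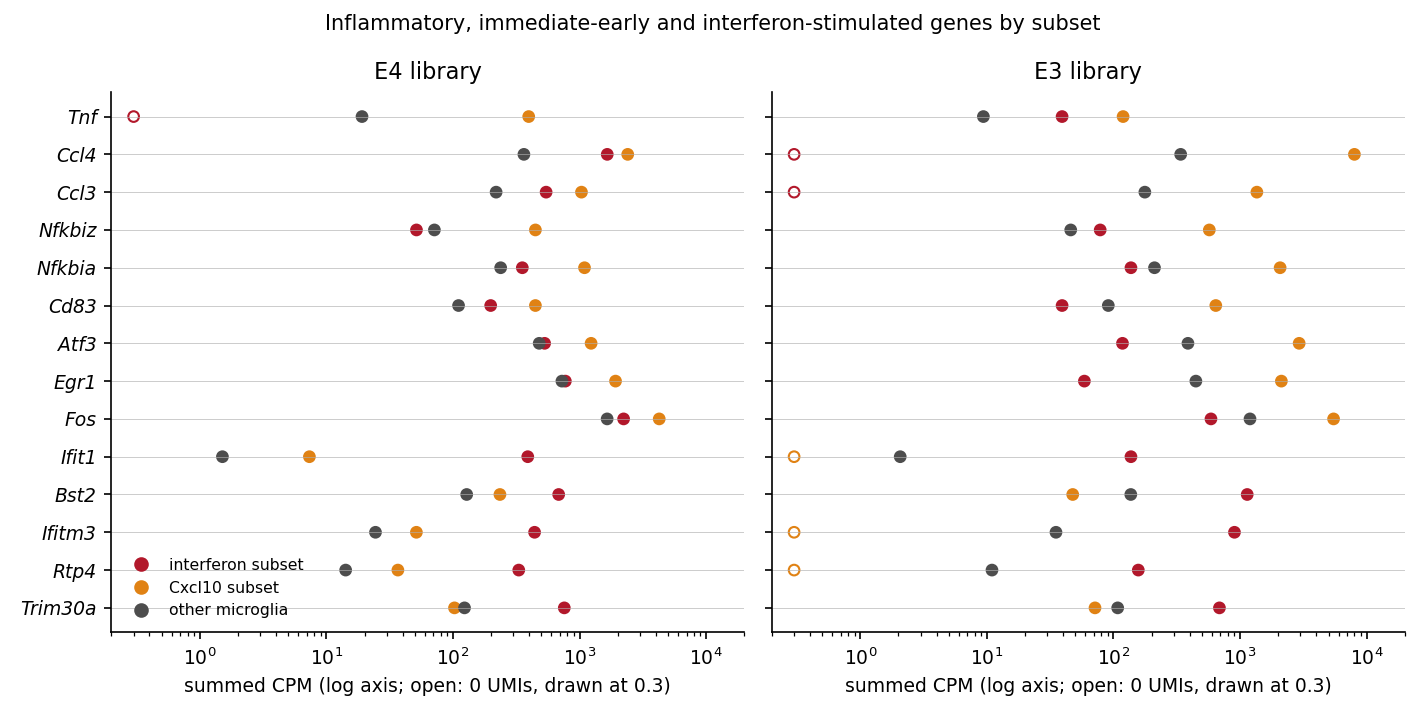
Points give the summed CPM on a log axis of 14 inflammatory, immediate-early and interferon-stimulated genes in the interferon subset, the Cxcl10 subset and other microglia, E4 on the left and E3 on the right, with open points for genes at 0 UMIs. Tnf, Ccl4 and Nfkbia are highest in the Cxcl10 subset and Ifit1, Bst2 and Ifitm3 in the interferon subset, in both libraries.

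Immediate-early genes, which brain dissociation at raised temperature is known to induce, moved with the Cxcl10 subset. Of 14 at level, 9 were at least 2-fold higher in both libraries, among them Ier2 (2.0 and 3.23), Fosb (1.70 and 2.07), Egr1 (1.41 and 2.24) and Fos (1.37 and 2.19). In the interferon subset 0 of 13 were. The part of dissociation in the levels of the Cxcl10 subset was not tested. Homeostatic genes were lower in the Cxcl10 subset for 16 of 17 genes in both libraries, and 3 were 2-fold lower: Maf (−1.14 and −1.13), Ltc4s (−1.06 and −2.71) and the fructose transporter Slc2a5 (−1.20 and −1.53). Of all 1618 genes at level, 585 were lower in both libraries. Of disease-associated genes, 4 of 11 were 2-fold higher in both, among them the protease Ctsb (1.02 and 1.26) and Cd63 (1.36 and 1.05). An E4 barcode of the subset held 991 oligodendrocyte UMIs.

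The endothelial subset combined both cell types in its transcripts. Its barcodes were deep, with medians of 14744 UMIs in E4 and 9799 in E3. Flt1, the receptor for VEGF, had 3089 CPM in E4 and 3553 in E3, against 4202 and 3868 in barcodes gated as endothelial, and the 10 microglial markers summed to 5899 and 5668 CPM, against 21595 and 21565 in endothelial-free other microglia. Mural cell markers were at 2242 and 2959 CPM. The interferon list had a median of 12359 CPM per barcode in E4 and 13436 in E3, near the 12739 and 12257 of endothelial barcodes. Other microglia with endothelial transcripts, 59 in E4 and 47 in E3, had lower medians of 10368 and 9990 CPM. Their median depths were 8528 and 8232 UMIs.

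Detection of the gate genes in the endothelial subset is set in part by the gate and by depth, and was above that of endothelial barcodes for each gene but Cxcl10 in E3. Median depths were 14743.5 against 4376.5 UMIs in E4 and 9799 against 4551.5 in E3. By CPM, Ifit3 (81.0 against 90.5) and Isg15 (30.4 against 37.2) were lower in the E4 subset than in E4 endothelial barcodes. The other gate genes in E4, and all but Cxcl10 in E3, were higher by CPM in the subset. Rsad2 was found in 83.3% of the E4 and 69.2% of the E3 subset and in 40.5% and 39.0% of endothelial barcodes. Isg15 was found in 6 of 30 E4 and 8 of 13 E3 barcodes of the subset and in 17.7% and 21.8% of endothelial barcodes, and Cxcl10 had 4 UMIs in the E4 and 0 in the E3 subset. Ccl12, which the gate did not use, at 2103 and 707 CPM in the interferon subset, had 6.08 and 6.39 CPM in the endothelial subset and 0.937 and 0.295 in endothelial barcodes. Ifi204 likewise had 12.2 and 0 CPM there, and Ly6a, abundant in endothelium, had 1951 and 2492 CPM in the endothelial subset against 88.2 and 118 in the interferon subset. Whether these barcodes held a microglial and an endothelial cell or free RNA of either was not tested.

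The gate was also passed outside microglia, which sets the background for the shares. At least 3 gate UMIs were held by 30.3% of E4 and 28.7% of E3 endothelial barcodes at median depths of 4376.5 and 4551.5 UMIs, and after thinning to 1500 UMIs by 5.69% and 4.32%. Of macrophage barcodes, 4.69% in E4 and 10.0% in E3 passed. Of astrocyte barcodes, 1.75% of 3648 in E4 and 1.84% of 3105 in E3 passed at medians of 4264.5 and 4376 UMIs, so that the microglial share of 1.84% in E4 lay within the astrocyte interval (1.35 to 2.23) and the 0.961% in E3 below it (1.39 to 2.37). The share of gated microglia alone is therefore not read as expression in microglia.

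**Figure D4:**
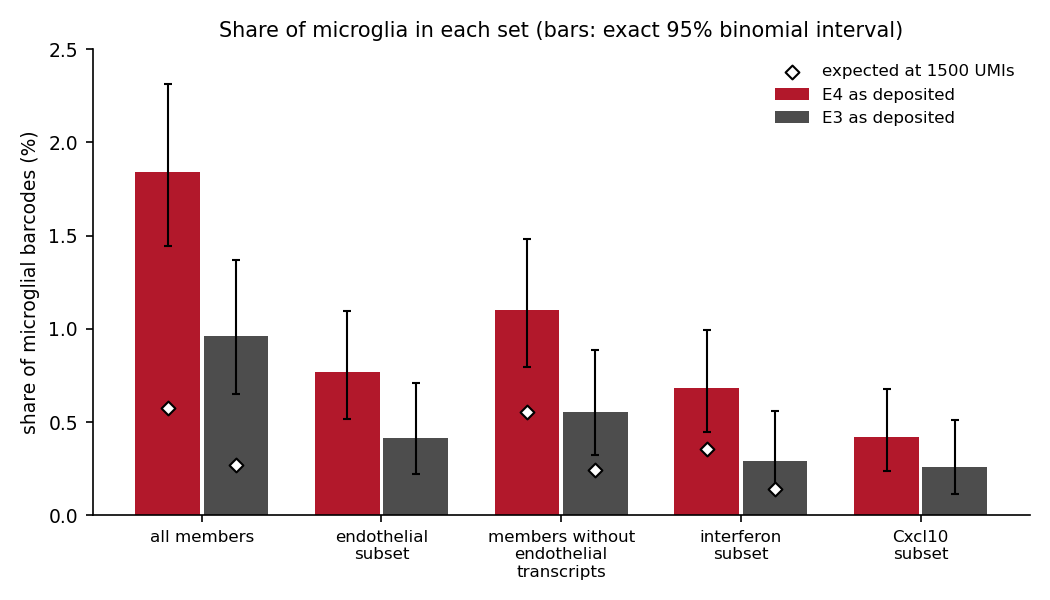
Bars give the percent of microglial barcodes in all members and in each subset for E4 and E3, with exact 95% binomial intervals for counting error, and diamonds the share expected at 1500 UMIs where it was computed. Subsets other than the endothelial one are shares of microglia without endothelial transcripts (3821 in E4, 3062 in E3). Every bar is higher in E4 than in E3. For the endothelial and Cxcl10 subsets, the interval of the ratio of E4 to E3 includes 1.

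With endothelial-mixed barcodes left out of every type, the gate of 6 genes was passed by 1.10% of E4 and 0.555% of E3 microglia, against 0.739% and 1.29% of astrocytes and 0.749% and 0.372% of oligodendrocytes. After thinning, the shares were 0.553% and 0.244% of microglia and 0.0736% and 0.152% of astrocytes. The interferon subset was 0.680% of E4 and 0.294% of E3 microglia, a ratio of 2.32 (1.05 to 5.61), against 0.711% and 1.26% of astrocytes passing the same 5 genes. Cxcl10 at 3 UMIs or more was found in 0.471% of E4 and 0.261% of E3 microglia, against 0.0284% and 0.0992% of astrocytes and 0 of 935 and 0 of 807 oligodendrocytes. Macrophage barcodes, 120 in E4 and 98 in E3, had higher shares than microglia, from few barcodes. The 6 genes were passed by 5 (4.17%) and 8 (8.16%) of them, the 5 genes by 3 (2.5%) and 8 (8.16%), and Cxcl10 alone by 2 (1.67%) and 1 (1.02%). The interval of the 5-gene share in E4 (0.519 to 7.13) includes the microglial share. So do those of Cxcl10 alone (0.202 to 5.89 in E4, 0.0258 to 5.55 in E3). After thinning, the 5 genes gave 0.186% and 2.63% of macrophage barcodes, against 0.356% and 0.140% of microglia. The Cxcl10 subset was 0.419% of E4 and 0.261% of E3 microglia, and its ratio of 1.60 had an interval of 0.647 to 4.33, which includes 1. The endothelial subset was 0.767% of E4 and 0.416% of E3 microglia, and its ratio of 1.84 had an interval of 0.933 to 3.85, which also includes 1. Among microglia with endothelial transcripts, 33.7% in E4 and 21.7% in E3 were members. After thinning, these shares were 1.59% and 1.66%.

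**Figure D5:**
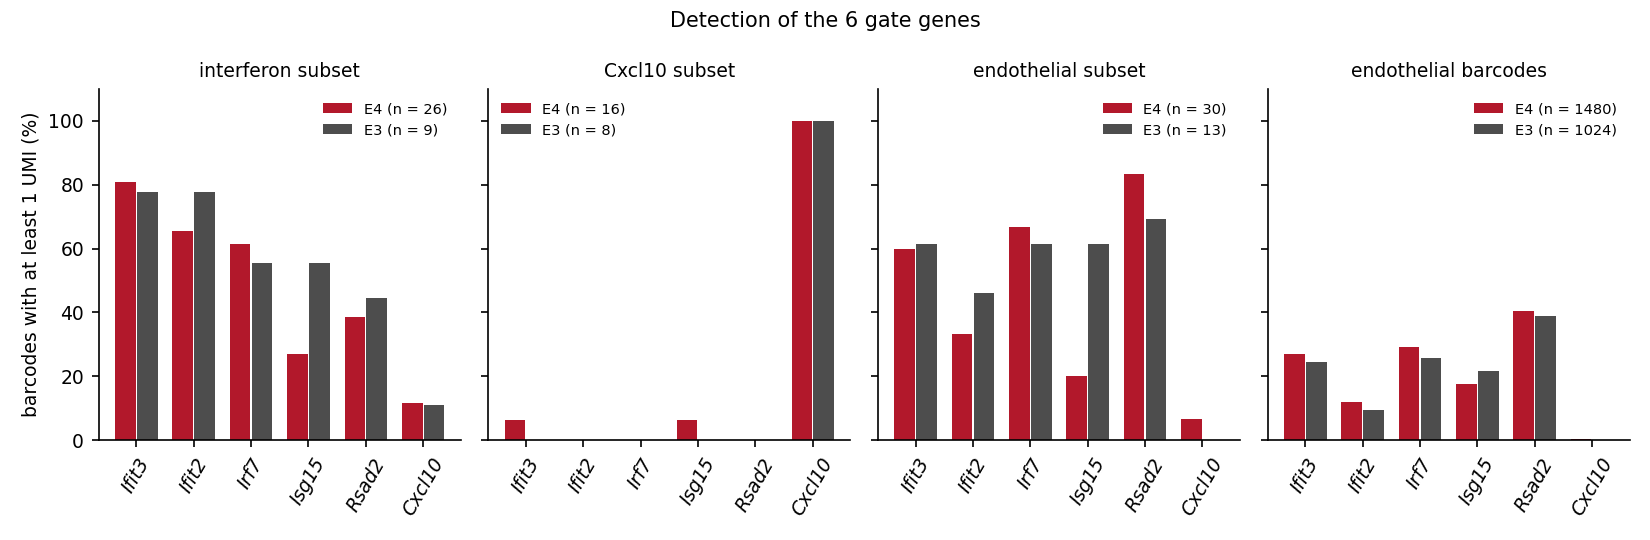
Bars give the percent of barcodes with at least 1 UMI of each of the 6 gate genes in the 3 subsets and in barcodes gated as endothelial, for E4 and E3. Rsad2 leads in the endothelial subset (83.3% in E4, 69.2% in E3) and in endothelial barcodes (40.5% and 39.0%), and the gate and the split fix in part what each subset holds. The sets also differ in depth, which affects detection.

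Taken over all 102 members, the differences from other microglia included those of the endothelial subset. Of 6086 genes with at least 30 UMIs in members, or as many expected, 763 (12.5%) were at least 2-fold higher in members in both libraries and 141 (2.32%) were lower. The interferon list counted 46 of 100 higher and 3 lower, with a median of 1.15 in E4 and 1.19 in E3 over the 98 of these genes with 30 UMIs held. Outside the gate and the lists, the 10 highest genes were Sgpp2, Cd93, Gkn3, Depp1, Prss23, Col4a2, Arhgef15, Sema3g, Rnf125 and Pcdh19, and Cd93 had 252 CPM in E4 members against 7.58 in other microglia and 353 in endothelial barcodes. The 10 lowest were Pecr, Accs, Fam167b, 0610040J01Rik, Gp9, Clec4a2, S100b, Ang, Prlr and Vav1, and Clec4a2, a myeloid lectin receptor, had 44.4 CPM in E4 members against 126 in other microglia and 0.416 in endothelial barcodes. With microglia holding 10 or more endothelial UMIs left out, 68 genes were at least 2-fold higher and 8 lower. The endothelial subset held 493651 of the 765874 member UMIs in E4 and 156482 of 249377 in E3. Fewer genes could thus reach the level rule without it, and the share of genes at level is not reported here.

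By the median over genes, the level of the interferon list in members lay close in E4 and E3. By the summed list it was lower in E4, at 13971 CPM against 16974 in E3. A single E3 barcode held 699 of the 4233 list UMIs of E3 members. An E4 barcode with 14284 UMIs, 9280 of them of haemoglobin, held 30 list UMIs. The list had a median log2 ratio of E4 to E3 of −0.11 in members and 0.06 in other microglia over 98 genes, beside 0.05 and 0.04 over all genes at level. This median in members turned to 0.10 with microglia holding 10 or more endothelial UMIs left out, and to 0.23 with Cxcl10 also left out of the gate. Of 3792 genes with at least 50 UMIs over members, 418 (11.0%) were at least 1.5-fold higher in E4 and 219 (5.78%) at least 1.5-fold lower. Of the list, 78 genes had 50 UMIs, and 7 were higher and 9 lower by that fold. These shares of 8.97% and 11.5% are given beside the background and rest on 1 library each. The 5 highest ratios were those of Cldn11 (96 UMIs in E4 and 0 in E3, at least 10.4-fold higher with 3 counts taken as the floor over the group), Hbb-bt, Hba-a1, Hbb-bs and Acta2 (54 and 0 UMIs, at least 5.86-fold higher), and a single E4 barcode held 76.0% of Cldn11, 92.6% of Acta2 and 99.7% of Hbb-bs. The 5 lowest were Ccl8 (0 UMIs in E4 and 71 in E3, at least 72.7-fold lower), Cxcl9 (0 and 56, at least 57.3-fold lower), Ccl5, Apold1 and H2-Ab1, and a single E3 barcode held all UMIs of Ccl8, Cxcl9 and H2-Ab1 and 95.3% of Ccl5. Apold1, an endothelial gene, was found in 15 E4 and 11 E3 members.

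Within the interferon subset, the 73 list genes at level had a median log2 ratio of E4 to E3 of 0.25, beside 0.17 over all 1715 genes, and of 0.13 without the 4 barcodes rich in other transcripts. The summed list in the subset went the other way, at 26300 CPM in E4 and 31008 in E3. A single E3 barcode held 699 of the 1579 list UMIs of E3. Other lists differed more between the libraries. At least 1.5-fold higher in E4 were 6 of 6 inflammatory genes (median 2.25), 12 of 13 immediate-early genes (1.90) and 14 of 17 homeostatic genes (0.96). Of all 1715 genes, 546 (31.8%) were. At least 1.5-fold lower in E4 were 6 of 12 class I genes and 10 of 12 mitochondrial genes, beside 353 (20.6%) of all genes. The 4 barcodes are kept in these counts. Ccl12 was higher in E4 than in E3 (2103 and 707 CPM, log2 ratio 1.57, 1.07 to 2.12), as was Parp14 (1.86, 0.97 to 2.91). Without the 4 barcodes Ccl12 had 1.32 (0.70 to 2.02) and Parp14 1.20 (0.22 to 2.36). Ifit1 had 1.5 (0.36 to 2.89) with them and 0.77 (−0.45 to 2.28) without them, an interval that includes 0. Ifitm3 was lower in E4 (441 and 903 CPM, −1.03, −1.61 to −0.45), and Bst2 had −0.74 (−1.22 to −0.24), against −1.16 and −0.87 without the 4 barcodes. The interval of Usp18 included 0 with them (0.32, −0.79 to 1.58) and without them (−0.05, −1.34 to 1.5). These genes were picked from the list after their values were seen, and the 9 E3 barcodes limit each of these ratios.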

How the data were processed

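Brain cells of pooled E4 and E3 mice were profiled by droplet single-cell RNA sequencing, with 1 library per genotype. The authors deposited raw UMI counts per gene and called barcode, made with Cell Ranger (6.1.1 for E4 and 6.1.2 for E3 per the file headers) on mm10 per the submitters' processing notes, and the sources used here do not name the annotation. The deposited counts were not normalized.

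The gate was applied to raw counts, which were then summed per library and set and divided by the total of the set (CPM). Other microglia held under 3 gate UMIs. Endothelial barcodes held at least 20 UMIs of the endothelial markers and astrocyte barcodes at least 6 UMIs of Aldoc and Gja1. Oligodendrocyte barcodes held at least 4 UMIs of Mog, Mag and Cldn11. Endothelial, astrocyte and oligodendrocyte barcodes also held fewer than 5 UMIs of C1qa, C1qb and C1qc. Macrophage barcodes held at least 4 UMIs of Mrc1, Pf4 and F13a1, at least 5 of the C1q genes and fewer than 6 of Aldoc and Gja1. Shares carry exact Clopper-Pearson 95% intervals, and each ratio of summed counts carries an exact 95% interval obtained by treating the split of its UMIs as binomial. Thinned shares are hypergeometric expectations at 1500 UMIs. No test was run, because cells of 1 library are not replicates. No doublet caller was run, and leaving out barcodes with markers of other types was tried instead. Mx1, Mx2, Pyhin1, Cxcl11, Gpr56 and Clec7a were not analysed here, and single values of some list genes are not reported here.

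The members and gene lists were chosen with earlier results of these data known, and the subsets, their level rule and the comparison cells were defined after the values were seen. Named genes are the gate genes, genes of the interferon lists, the 10 highest and 10 lowest in members against other microglia, the 5 highest and 5 lowest in E4 against E3, and the most abundant or 2-fold different genes of other lists. Genes furthest from other microglia in a subset were named after their values were seen. The alternatives were other gates, depth and mitochondrial limits, scalings, level rules and sets of barcodes. The ratios and their intervals were tested on simulated counts drawn independently per gene. That simulation left out the concentration of UMIs in single barcodes seen here. Python 3.11.15, NumPy 2.4.6, SciPy 1.17.1, pandas 2.3.3 and matplotlib 3.10.9 were used.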

Additional observations from a re-analysis of the deposited data

Results flagged for a closer look

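Haemoglobin genes differed in direction between the libraries. The log2 ratio of members to other microglia was 2.68 in E4 and −4.18 in E3 for Hba-a1, 2.53 and −3.39 for Hba-a2, 2.45 and −4.29 for Hbb-bs, and 3.15 and −3.27 for Hbb-bt. A single E4 barcode held 99.5% to 99.9% of the UMIs of each of these 4 genes in E4 members. Acta2, of smooth muscle, and Cldn11, of oligodendrocytes, were higher in E4 members (2.62 and 1.22) and had 0 UMIs in E3 members, and a single E4 barcode held 92.6% of the Acta2 and 76.0% of the Cldn11 UMIs. None of these differences between the libraries was tested.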

How the results depend on the processing

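The share of microglia in the gate was higher in E4 than in E3 in each of 11 settings, while its size depended on the setting. It was 3.09% in E4 and 1.63% in E3 at 2 gate UMIs, 1.30% and 0.512% at 5, 1.23% and 0.609% with 2 gate genes detected, 0.948% and 0.489% without barcodes holding markers of other types, 1.10% and 0.555% without endothelial transcripts, 0.680% and 0.294% with Cxcl10 also left out of the gate, and 0.576% and 0.271% after thinning. Without Cxcl10 alone it was 1.41% in E4. The median log2 ratio of the interferon list, members to other microglia, was 2.41 in E4 and 2.12 in E3 without endothelial transcripts and Cxcl10, and 1.07 to 1.58 in E4 and 0.98 to 1.52 in E3 in the other 16 settings.

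Genes at least 2-fold higher in members in both libraries numbered 46 without markers of other types, 314 at a level of 100 UMIs, 68 without endothelial transcripts and 52 with Cxcl10 also left out. Genes 2-fold lower numbered 72 at 2 gate UMIs, 262 without Cxcl10, 283 with 2 gate genes, 4 without markers of other types, 40 by mean CPM per cell, 88 with other microglia weighted to the members' depth, 66 at 100 UMIs, 8 without endothelial transcripts and 9 with Cxcl10 also left out.

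The median E4 to E3 ratio of the list in members was 0.037 with 2 gate genes, 0.12 without markers of other types, 0.039 by mean CPM per cell, 0.10 without endothelial transcripts and 0.23 with Cxcl10 also left out. In other microglia it was 0.094 without markers of other types and −0.038 at the members' depth. Genes at least 1.5-fold higher in E4 members numbered 80 without markers of other types, 1291 at 20 UMIs, 112 at 100 UMIs, 201 without endothelial transcripts and 144 with Cxcl10 also left out. Genes lower by that fold numbered 93, 670, 64, 130 and 112 under the same 5 settings. Level rules and left-out barcodes change how many genes or barcodes enter, and for the other settings the cause was not tested. The settings without endothelial transcripts, that without barcodes rich in class II transcripts, and that without 4 barcodes rich in other transcripts in the interferon subset, were chosen after seeing the data.

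No paired analysis was possible because each genotype had 1 library, and for the same reason none was left out in turn. The interferon subset holds 9 E3 barcodes, which limits every E3 value of it.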
